A study of Mus musculus with 3 samples.

Results

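The CXC chemokine genes Cxcl1, Cxcl2, Cxcl9, Cxcl10, Cxcl12, Cxcl13 and Cxcl14 and the receptor genes Cxcr2, Cxcr4 and Ackr3 were followed through single-cell RNA profiles of the mouse aortic adventitia, the outer sheath of the vessel wall. These 10 members were chosen by symbol from the 32285 genes in the count tables, and all 10 were found. The mice were given saline (Vehicle), angiotensin II (AngII), a peptide hormone that constricts vessels, or angiotensin II together with voluntary wheel running (AngII_VWR), so that AngII_VWR carried the hormone as well and no group ran without it. Each group of 3 mice was deposited as 1 library, and how the 3 mice were combined, their strain, age and sex, and the dose and duration of the treatments are not given in the sources used here. With 1 library per group there was no replicate and no statistical test. All intervals below are 95% intervals for counting error alone, and a ratio compares 2 libraries rather than 2 treatments.

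CXC chemokines are small secreted proteins named for a pair of cysteines with a single residue between them. Cxcl1 and Cxcl2 carry the ELR motif, bind Cxcr2 and draw neutrophils, whereas Cxcl9 and Cxcl10 are induced by interferon and bind Cxcr3 on T cells. Cxcl12 retains Cxcr4-bearing leukocytes in tissues, and Ackr3 is an atypical receptor that takes up Cxcl12 without coupling to G proteins. Cxcl13 draws B cells through Cxcr5, and Cxcl14 is made by epithelia and stroma in the resting state.

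Of the ligand genes, 5 lie on chromosome 5. Their positions in GENCODE M21, on the mm10 build of the deposited counts, were chr5:90891241-90893115 for Cxcl1 (ENSMUSG00000029380), chr5:90903871-90905938 for Cxcl2 (ENSMUSG00000058427), chr5:92321347-92328079 for Cxcl9 (ENSMUSG00000029417), chr5:92346638-92348889 for Cxcl10 (ENSMUSG00000034855) and chr5:95956951-95961068 for Cxcl13 (ENSMUSG00000023078). Cxcl12 (ENSMUSG00000061353) lies at chr6:117168535-117181367 and Cxcl14 (ENSMUSG00000021508) at chr13:56288643-56296551. The receptor genes lie on chromosome 1: Cxcr2 (ENSMUSG00000026180) at chr1:74153989-74161246, Cxcr4 (ENSMUSG00000045382) at chr1:128588199-128592293 and Ackr3 (ENSMUSG00000044337) at chr1:90203980-90216751. All 10 are annotated as protein-coding.

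The promoters of the inducible chemokines Cxcl1, Cxcl2, Cxcl9 and Cxcl10 are shown because 3 of them, all but Cxcl2, were at least 2-fold lower in AngII_VWR than in AngII fibroblasts, and because all are textbook targets of NF-kB or of interferon-activated factors. Each stretch comes from the RefSeq table of build GRCm38.p6, runs 5′ to 3′ on the strand of the gene and covers bases 220 to 31 upstream of the RefSeq start. The stretches are chr5:90891025-90891214 on the plus strand, chr5:90903679-90903868 on the plus strand, chr5:92328110-92328299 on the minus strand and chr5:92348920-92349109 on the minus strand. Capitals mark the motif matches listed below.
Cxcl1: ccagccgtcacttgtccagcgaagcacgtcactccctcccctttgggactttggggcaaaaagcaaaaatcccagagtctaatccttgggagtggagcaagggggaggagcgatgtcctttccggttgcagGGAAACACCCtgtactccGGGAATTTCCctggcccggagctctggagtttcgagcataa
Cxcl2: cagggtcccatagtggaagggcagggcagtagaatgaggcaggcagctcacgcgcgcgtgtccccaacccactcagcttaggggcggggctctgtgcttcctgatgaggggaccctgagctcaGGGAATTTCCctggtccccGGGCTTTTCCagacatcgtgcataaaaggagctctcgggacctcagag
Cxcl9: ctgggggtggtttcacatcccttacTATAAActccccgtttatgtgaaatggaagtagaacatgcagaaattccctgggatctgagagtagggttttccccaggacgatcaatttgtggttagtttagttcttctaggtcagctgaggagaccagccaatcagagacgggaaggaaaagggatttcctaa
Cxcl10: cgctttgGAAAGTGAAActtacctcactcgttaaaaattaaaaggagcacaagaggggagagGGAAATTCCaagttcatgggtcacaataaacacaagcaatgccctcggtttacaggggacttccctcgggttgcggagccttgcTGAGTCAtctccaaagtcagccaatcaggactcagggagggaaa

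Motifs were searched on both strands of the 250 bases upstream of the start, in all 10 members and in 32851 RefSeq promoters. A kappaB motif, GGG followed by any pair of bases and TTTCC, occurred in 1.41% of all promoters and in 2 of the 10 members, Cxcl1 and Cxcl2. Cxcl1 held GGGAATTTCC at bases 71 to 62 upstream and GGAAACACCC, on the other strand, at 89 to 80. Cxcl2 held GGGAATTTCC at 97 to 88 and GGGCTTTTCC at 78 to 69. The shorter form GGAATTTCC, which lies within GGGAATTTCC, occurred in 0.286% of promoters and in 3 members, Cxcl1, Cxcl2 and Cxcl10. In Cxcl10 its reverse complement, GGAAATTCC, stood at 158 to 150. The core of the interferon-stimulated response element, GAAA, any pair of bases and GAAA again, occurred in 2.98% of promoters and in Cxcl10, as GAAAGTGAAA at 213 to 204, and Cxcl14. TGANTCA, the AP-1 motif, occurred in 6.75% of promoters and, of the members, in Cxcl10. TATAAA occurred in 12.4% of promoters and in 4 members, Cxcl9, Cxcl13, Cxcr4 and Ackr3. A match describes the letters in this window and not a bound site.

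The libraries held 15093, 10515 and 19633 barcodes in Vehicle, AngII and AngII_VWR, the order of every set of 3 values below, against 10000 cells used per library by the labels. They held 165977330, 141570158 and 105679209 UMIs, each a molecule counted once. After filtering, 12324, 9115 and 16125 cells remained with a median of 9430.5, 13154 and 4472 UMIs, so AngII_VWR was the shallowest. AngII_VWR was also the only library counted with Cell Ranger 7.1.0 rather than 7.0.1, per the file headers, and version, depth and running cannot be told apart. Cells were put in source classes by their share of UMIs from marker genes: fibroblast (Col1a1, Col1a2, Dcn and Lum, at least 1%), macrophage (C1qa, C1qb and C1qc, at least 0.3%) and rest (neither). Fibroblasts numbered 6545, 6081 and 10913 cells (53.1, 66.7 and 67.7%), macrophages 2537, 1998 and 3221 and rest cells 3177, 1022 and 1915, and 65, 14 and 76 cells that met both rules were set aside. Markers outside the rules followed the class names: Pdgfra, a fibroblast receptor, stood at 232, 204 and 265 CPM in the fibroblast class and 5.43, 2.85 and 10.5 in the macrophage class, and Csf1r, the macrophage growth factor receptor, at 8.41, 8.53 and 16.6 and 1151, 1112 and 770.0. CPM is the number of UMIs of a gene per 1000000 UMIs of the class. Each class is a range of marker share rather than a type. In all, 1367, 321 and 1033 cells lay between 0.8 and 1.25 times the fibroblast minimum and 87, 26 and 186 as near the macrophage one, and rest cells of no named type still had Pdgfra at 204, 177 and 171 CPM. The libraries shared 44 to 80 barcodes in pairs, 30 to 51 of them among the retained cells.

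Most members had 1 main source. Cxcl12 UMIs came from fibroblasts for 92.6, 94.9 and 94.0% in the 3 libraries, Cxcl14 UMIs for 89.7, 96.1 and 91.5%, Ackr3 UMIs for 83.4, 93.3 and 86.3% and Cxcl1 UMIs for 72.0, 90.4 and 76.3%. Macrophages held 91.2, 86.8 and 81.1% of Cxcl2 UMIs and 83.1, 89.1 and 67.9% of Cxcr4 UMIs. Cxcr2 UMIs came from the neutrophils of the rest class for 81.7, 66.3 and 66.4%, and from rest-class leukocytes of no named type for 0, 23.3 and 18.9%. Cxcl9 and Cxcl10 were spread over all classes, with 54.3, 42.0 and 27.8% and 39.0, 45.9 and 26.0% in fibroblasts. Cxcl13 had its largest share in different classes: fibroblasts held 83.6, 17.3 and 46.0% of its UMIs and macrophages 13.1, 72.7 and 39.8%. These shares move with the number and depth of cells in each class as well as with the level per class.

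**Figure D1:**
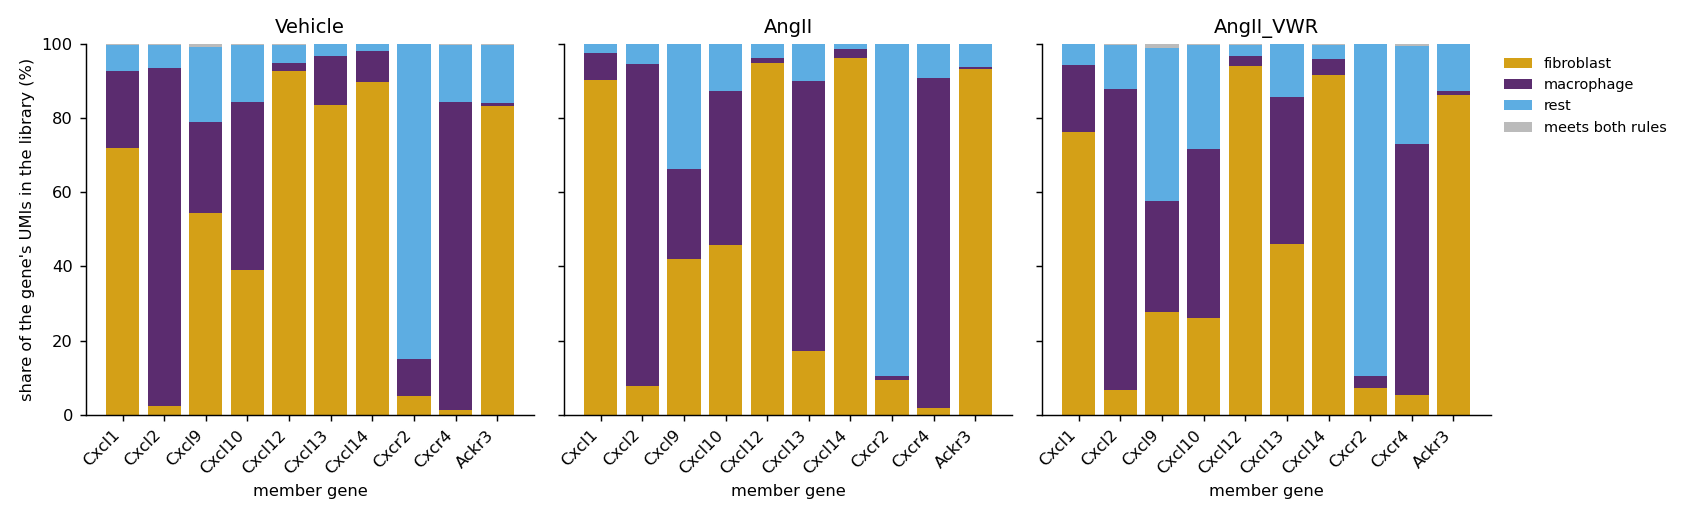
Stacked bars give the share of the UMIs of each member (x axis) found in each source class (y axis, percent of the gene's UMIs in the library), 1 panel per library. Fibroblasts dominate Cxcl1, Cxcl12, Cxcl14 and Ackr3, macrophages Cxcl2 and Cxcr4, and rest cells Cxcr2, while the largest share of Cxcl13 is in fibroblasts in Vehicle (83.6%) and in macrophages in AngII (72.7%).

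Cxcl1, a neutrophil attractant, was higher in AngII fibroblasts than in Vehicle and far lower in AngII_VWR than in either. Its level in fibroblasts was 748, 1180.4 and 258 CPM in Vehicle, AngII and AngII_VWR, from 54696, 97171 and 15063 UMIs. This is 1.58-fold higher (95% interval 1.56 to 1.59) in AngII than in Vehicle and 4.58-fold lower (95% interval 4.50 to 4.66) in AngII_VWR than in AngII. The share of fibroblasts with a Cxcl1 UMI moved the same way, at 33.8% (32.5 to 35.0), 50.7% (49.4 to 52.0) and 19.0% (18.2 to 19.9) once cells were thinned to 2000 UMIs, which left out 987, 477 and 2141 shallower cells, and at 46.6, 68.9 and 26.8% unthinned. T cells, which should lack Cxcl1, gave 2.55, 8.86 and 3.70% thinned, at a median depth of 6448.5, 7802 and 3283 UMIs against 9494, 12993 and 4590 in fibroblasts before thinning. Cxcl1 was uneven within the class: the 5% of fibroblasts with the most UMIs held 53.5, 33.8 and 65.6% of them.

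In macrophages the 3 libraries had a different order. Cxcl1 stood at 481, 252 and 205 CPM, highest in Vehicle, and was 1.91-fold lower (95% interval 1.86 to 1.97) in AngII than in Vehicle. The AngII_VWR level was 1.23-fold lower (95% interval 1.18 to 1.28) than in AngII. Subtracting 5% of the profile of all other cells of each library, as an allowance for free RNA, took that last ratio from 0.813 to 0.980. Markers of fibroblasts summed to 523, 608 and 1541 CPM in the macrophage class, with all 6 detected in each library.

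Cxcl2, the other ELR chemokine measured, was a macrophage product in these cells. Its level in macrophages was 4045, 2712 and 3187 CPM, from 131936, 84736 and 55534 UMIs, and was 1.49-fold lower (95% interval 1.48 to 1.50) in AngII than in Vehicle and 1.17-fold higher (95% interval 1.16 to 1.19) in AngII_VWR than in AngII. All measured genes of the macrophage class had a median log2 ratio of 0.17 in that second comparison, and relative to it the Cxcl2 difference was 0.06. Most macrophages carried the transcript: 71.4% (69.5 to 73.2), 75.9% (74.0 to 77.8) and 77.4% (75.8 to 78.9) had a Cxcl2 UMI when thinned to 2000 UMIs (78.4, 88.3 and 82.5% unthinned). Thus the share was lowest in Vehicle where the CPM was highest, and no order is read from it. In fibroblasts Cxcl2 stood at 48.4, 92.3 and 79.7 CPM, against 99.6, 67.5 and 95.1 in T cells, and 7.07, 7.80 and 13.2% of thinned fibroblasts had a UMI against 9.55, 8.86 and 21.0% of T cells. The 5% of fibroblasts with the most UMIs held 66.2, 81.9 and 44.5% of them. Among the fibroblast states described below, Cxcl2 in AngII ran up to 173 CPM in near-fat cells and 421 in the few acute-phase cells, and the part of free RNA in the fibroblast values was not tested beyond the subtraction.

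**Figure D2:**
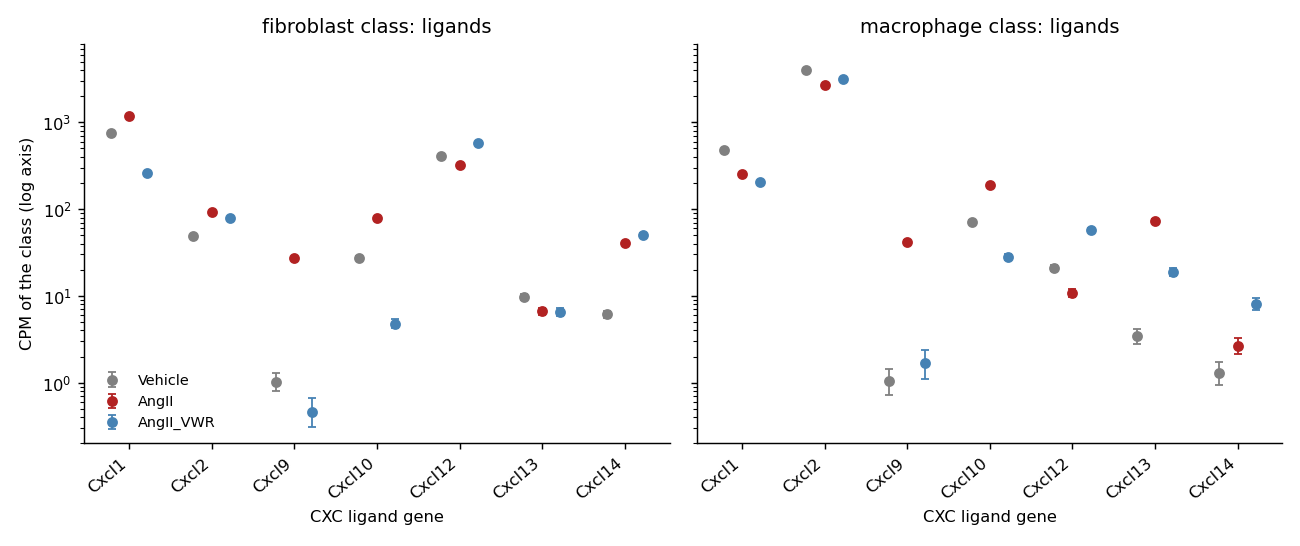
Points give the CPM of each ligand (log axis) in the fibroblast class (left) and the macrophage class (right), 1 colour per library, with exact Poisson 95% intervals that are often smaller than the point. Cxcl9 and Cxcl10 are highest in AngII in both classes, and Cxcl1 is highest in AngII in fibroblasts (1180.4 CPM) but in Vehicle in macrophages (481 CPM).

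Cxcl10, a T-cell attractant induced by interferon, was highest in AngII in both main classes. Its level was 27.4, 79.8 and 4.78 CPM in fibroblasts and 71.5, 190.1 and 28.1 in macrophages. In fibroblasts it was 2.91-fold higher (95% interval 2.77 to 3.06) in AngII than in Vehicle and 16.7-fold lower (95% interval 14.8 to 18.9) in AngII_VWR than in AngII. In macrophages the same ratios were 2.66-fold higher (95% interval 2.53 to 2.79) and 6.76-fold lower (95% interval 6.17 to 7.43). AngII_VWR thus stood below Vehicle as well in both classes. A single fibroblast held 1209 of the 6569 Cxcl10 UMIs of AngII fibroblasts. Over the alternative settings the fibroblast differences ran from 2.50 to 3.93-fold higher and from 12.1 to 22.6-fold lower, wider than the intervals for counting error. Thinned cells with a Cxcl10 UMI made up 2.27, 4.34 and 0.604% of fibroblasts and 5.72, 12.9 and 3.11% of macrophages, against 4.74, 10.2 and 1.15% and 10.7, 25.2 and 5.74% unthinned. T cells gave 0.637, 2.53 and 6.17% thinned. In AngII_VWR they stood at 74.3 CPM, above both main classes, so they give no background level for Cxcl10 in that library.

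Cxcl9, from the neighbouring gene, was likewise highest in AngII in both classes but rested on few cells. It stood at 1.03, 27.2 and 0.462 CPM in fibroblasts and 1.04, 41.5 and 1.66 in macrophages, from 75, 2236 and 27 and 34, 1297 and 29 UMIs. The AngII over Vehicle ratio was 26.5-fold (95% interval 21.0 to 33.8) in fibroblasts and 39.8-fold (95% interval 28.4 to 57.8) in macrophages. AngII_VWR was 58.7-fold lower (95% interval 40.3 to 89.3) than AngII in fibroblasts and 24.9-fold lower (95% interval 17.3 to 37.4) in macrophages. Over the alternative settings that second difference ran from 16.7 to 135-fold lower in fibroblasts and from 16.4 to 44.5-fold in macrophages. A single fibroblast held 1307 of the 2236 Cxcl9 UMIs of AngII fibroblasts. Without the cell with the most Cxcl9 UMIs in each library, an alternative added after seeing the data, the levels were 11.3 CPM in AngII and 0.411 in Vehicle, a ratio of 27.5. The fibroblast ratio was 7.39 for the mean of per-cell CPM and 55.3 without activated fibroblasts, so its size is poorly fixed. In macrophages it was 77.8 without the top cell and 25.2 without Ccr2 cells. No more than 1.97% of AngII fibroblasts and 2.70% of AngII macrophages had any Cxcl9 UMI. In AngII fibroblasts thinned to 2000 UMIs, 12 of the 28 with a Cxcl9 UMI also had one of Cxcl10, 42.9%, against 4.14% of the other fibroblasts.

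Cxcl12, the ligand of Cxcr4 and Ackr3, was lowest in AngII fibroblasts and highest in AngII_VWR ones. The levels were 410.4, 319.6 and 579 CPM, from 29996, 26311 and 33792 UMIs. It was 1.28-fold lower (95% interval 1.26 to 1.31) in AngII than in Vehicle and 1.81-fold higher (95% interval 1.78 to 1.84) in AngII_VWR than in AngII, both under the 2-fold size used for calls here. With 2 times the minimum marker share for the fibroblast class, the second ratio was 2.04. Thinned fibroblasts had a Cxcl12 UMI in 43.6% (42.3 to 44.9), 34.3% (33.1 to 35.6) and 49.5% (48.4 to 50.5), and in 69.4, 62.2 and 65.1% unthinned. Macrophages gave 20.8, 10.8 and 57.4 CPM and T cells, which should lack it, 11.9, 5.87 and 98.1, so T cells were below macrophages in Vehicle and AngII, with overlapping intervals, and above them in AngII_VWR. The AngII_VWR over AngII ratio in macrophages was 5.32, and no source of these UMIs is read from it. The fibroblast markers in the macrophage class, given above, were highest in AngII_VWR as well, and their part in that ratio was not tested beyond the subtraction of free RNA. That subtraction left Cxcl12 at 0 in AngII macrophages but above the minimums for a call in AngII_VWR ones.

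Cxcl14 and Cxcl13, the remaining homeostatic ligands, were each carried by a small share of cells. Cxcl14 stood at 6.17, 40.6 and 50.7 CPM in fibroblasts, from 451, 3339 and 2959 UMIs, low in Vehicle and similar in the other libraries. It was 6.57-fold higher (95% interval 5.96 to 7.27) in AngII than in Vehicle, and 1.25-fold higher (95% interval 1.19 to 1.31) in AngII_VWR than in AngII, a ratio that was 0.873 with cells thinned to 2000 UMIs. Over the 5 fibroblast groups described below, the AngII over Vehicle ratio was above 1 in each but past 2-fold in 3. It ran from 1.58 in Cilp cells to 8.27 in progenitor cells. The part of the differing shares of these states in the class ratio was not tested. A Cxcl14 UMI was found in 0.720, 2.50 and 2.54% of thinned fibroblasts (1.33, 6.18 and 4.19% unthinned). Cxcl13 was at 9.78, 6.63 and 6.51 CPM in fibroblasts, where the AngII and AngII_VWR levels differed by less than counting error, a ratio of 0.981-fold (95% interval 0.858 to 1.12). A single cell held 193 of the 546 Cxcl13 UMIs of AngII fibroblasts. Over the 5 fibroblast groups described below, this ratio ran from 0.665 to 2.94, so no equality of the 2 libraries is read from it. In macrophages Cxcl13 was at 3.43, 73.4 and 18.9 CPM, 21.4-fold higher (95% interval 17.7 to 26.1) in AngII than in Vehicle and 3.89-fold lower (95% interval 3.46 to 4.38) in AngII_VWR than in AngII. This signal was narrow: 134 of 1998 AngII macrophages had a Cxcl13 UMI, and the 5% of macrophages with the most UMIs held 98.5% of them.

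Differences of the members were counted beside those of all genes. A member was called when its CPM differed at least 2-fold with at least 50 UMIs and 5 CPM in the higher library. In fibroblasts 8 of the 10 members met those minimums for AngII over Vehicle, all but Cxcr2 and Cxcr4. Of these, 3 were called higher (Cxcl9, Cxcl10 and Cxcl14), against 3.47% of all genes tested, and 1 lower (Ackr3), against 2.02%. For AngII_VWR over AngII in fibroblasts, 0 were called higher, against 2.29%, and 3 lower (Cxcl1, Cxcl9 and Cxcl10), against 1.96%. In macrophages 8 members met the minimums for AngII over Vehicle. Of these, 3 were higher (Cxcl9, Cxcl10 and Cxcl13), against 3.86%, and 1 lower (Ackr3, at levels no higher than in T cells), against 2.43%. For AngII_VWR over AngII, 9 met them: 3 were higher, against 6.18%, and 3 lower (Cxcl9, Cxcl10 and Cxcl13), against 2.21%. The 3 macrophage members called higher, Cxcl12, Cxcl14 and Ackr3, were at 57.4, 8.09 and 16.6 CPM in AngII_VWR macrophages and 98.1, 2.97 and 29.7 in T cells of that library. In rest cells, where cell types are mixed, 4 were higher for AngII over Vehicle (Cxcl9, Cxcl10, Cxcl13 and Cxcr2), against 13.7%, and 1 lower (Ackr3), against 7.71%, while for AngII_VWR over AngII 3 were higher (Cxcl14, Cxcr2 and Cxcr4), against 3.3%, and 3 lower (Cxcl9, Cxcl10 and Cxcl13), against 5.55%. Of the 3 receptors in leukocytes, 0 were higher and 1 lower (Ackr3) for AngII over Vehicle, against 3.42% and 2.73%, and 2 were higher (Cxcr2 and Ackr3) and 0 lower for AngII_VWR over AngII, against 5.95% and 1.9%. Among the rest cells, the Cxcl13 ratio of AngII over Vehicle was 33.7 but 3.20 without the top cell, where Cxcl13 no longer met the minimums, nor did it when thinned. Cxcr2 also fell short of the minimums for AngII over Vehicle when thinned or with 2 times the class minimum, and its AngII_VWR over AngII ratio went from 4.11 to 1.38 when thinned. Both comparisons use the AngII library, so a high or low value there moves both. The median log2 ratio of the members that met the minimums was 0.79 and -0.12 in fibroblasts and -0.54 and 0.23 in macrophages, against -0.07, 0.10, -0.01 and 0.17 over all measured genes. Nothing is read from these medians, since the members were chosen with results of these libraries known.

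**Figure D3:**
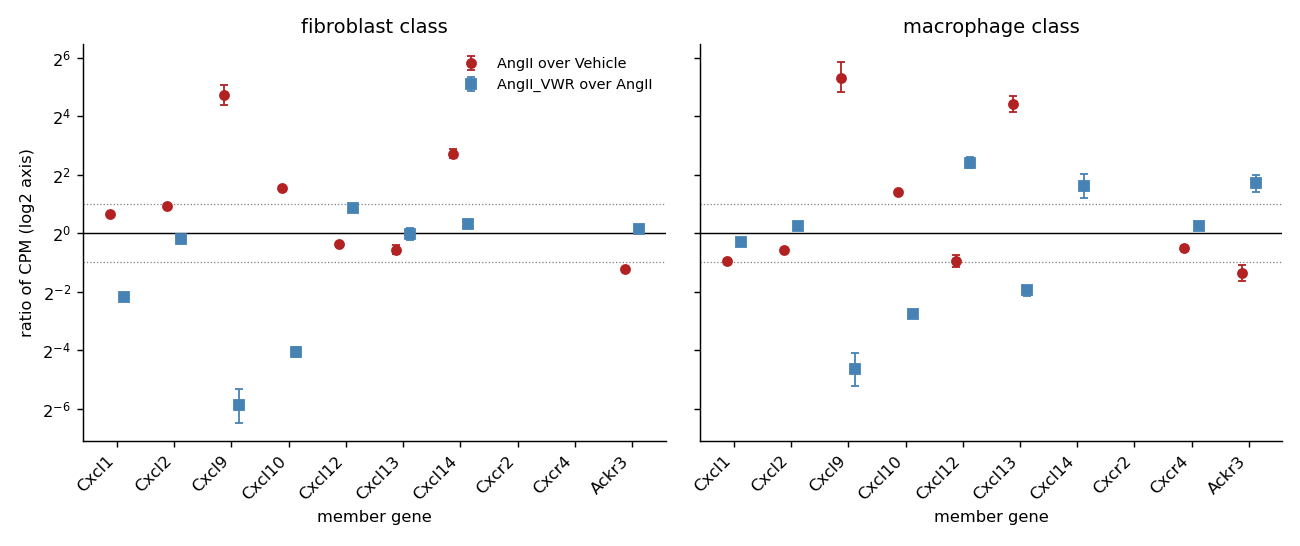
Points give the CPM ratio of each member (log2 axis) for AngII over Vehicle (circles) and AngII_VWR over AngII (squares), with exact conditional 95% intervals for counting error, for members that met the minimums; dotted lines mark 2-fold. In fibroblasts (left) Cxcl9 and Cxcl10 lie above the upper line in the first comparison and below the lower line in the second, and Cxcl1 is below it in the second only, at 0.219.

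The lower Cxcl1 in AngII_VWR was present in every fibroblast state compared. States are cells with a minimum share of UMIs from a short list, and a cell may be in several: progenitor (Pi16, Dpp4, Cd55, Sema3c), activated (Thbs4, Tnc, Comp, Cthrc1, Postn), near-fat (Penk, Ptx3, Has1), Cilp (Cilp, Sfrp1, Piezo2) and acute-phase (Saa3). Their shares of the class differed between libraries: progenitor cells made up 78.4, 51.1 and 47.0%, activated cells 10.7, 52.6 and 32.5%, near-fat cells 20.3, 18.5 and 4.74% and Cilp cells 8.95, 27.6 and 23.6%. Cxcl1 was 701, 1107 and 228 CPM in progenitor cells, 1394, 1267 and 281 in activated cells, 1445, 1936 and 794 in near-fat cells and 1598, 1303 and 339.7 in Cilp cells. Over these 4 states and the cells in none of them, the AngII_VWR over AngII ratio ran from 0.199 to 0.410. The AngII over Vehicle ratio did not share a direction: it was above 1 in 3 of the 5 groups and below 1 in 2, the activated cells at 0.909 and the Cilp cells at 0.815.

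Cxcl12 was lowest in AngII within these 4 states. Its level was 348, 216 and 373 CPM in progenitor cells, 585, 264 and 498 in activated, 535, 411 and 477 in near-fat and 695, 243 and 474 in Cilp cells. AngII_VWR thus stood above Vehicle in the progenitor cells but below it in the other 3 states, unlike in the class as a whole. The AngII_VWR over AngII ratio of Cxcl12 was above 1 in 5 of 5 groups, from 1.16 to 1.95. For AngII over Vehicle it was below 1 in 4 groups, as low as 0.350 in Cilp cells, and 1.22 in the cells of no named state. Cxcl10 was lower in AngII_VWR than in AngII in 5 of 5 groups, with ratios from 0.0569 to 0.0945. The Saa3-defined acute-phase cells, 0, 19 and 80 in number, had Cxcl12 at 2134 CPM in AngII and 2358 in AngII_VWR. Cxcl14 in the same cells stood at 577 and 678 CPM, and Cxcl1 at 1596 and 1109. These Cxcl12 and Cxcl14 levels were above those of each of the 4 other named states in the same library.

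**Figure D4:**
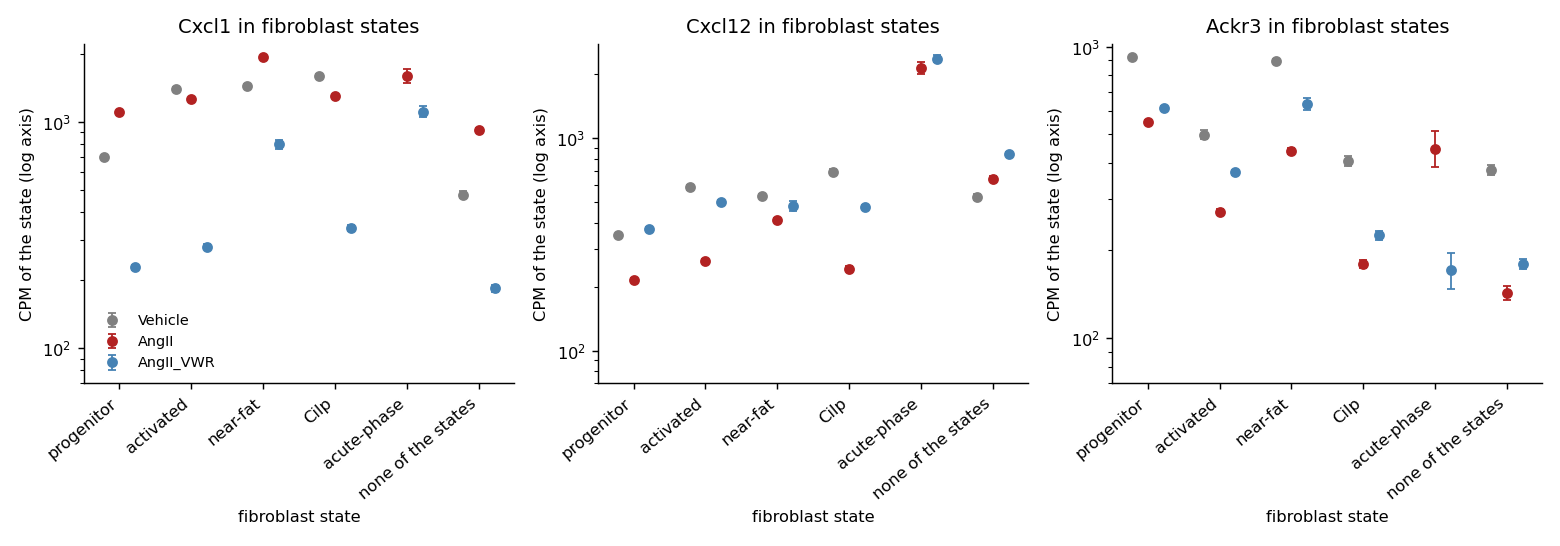
Points give the CPM (log axis) of Cxcl1, Cxcl12 and Ackr3 within fibroblast states (x axis), 1 colour per library, with exact Poisson 95% intervals; Vehicle has no acute-phase cell. Cxcl1 in AngII_VWR lies below AngII in each state, and Ackr3 is highest in Vehicle in each state that Vehicle holds.

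Among macrophage states Cxcl9 and Cxcl10 were highest, in every library, in the cells with interferon-induced transcripts (Ifit1, Ifit2, Ifit3, Isg15, Rsad2), and Cxcl13 was highest there in Vehicle and AngII. These cells numbered 102, 63 and 34. Cxcl10 stood there at 339, 1336 and 87.8 CPM, Cxcl9 at 16.3, 439.9 and 27.0 and Cxcl13 at 20.6, 513 and 0. The Cxcl10 lead was small outside AngII. Vehicle cells of no named state had 318 CPM, with an overlapping interval, and AngII_VWR Ccr2 cells had 63.3. The resident state (Lyve1, Folr2, Cd163, Timd4, Fcna) made up 91.9, 58.7 and 67.6% of macrophages and the Ccr2 state 1.34, 23.2 and 10.5%. Cxcl13 differed between these states: it was 3.58, 113 and 26.4 CPM in resident cells and 0, 3.97 and 0 in Ccr2 cells. Cxcl2 was present at similar levels in each of the larger states, at 3934, 2656.5 and 3035 CPM in resident, 4743, 2727 and 3493 in MHC class II and 3503, 2491 and 3401 in Ccr2 cells.

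Cxcr2, the receptor of Cxcl1 and Cxcl2, was highest by far in neutrophils. Neutrophils, rest cells with at least 0.5% of UMIs from S100a8, S100a9, Retnlg and Csf3r together, numbered 11 in Vehicle, 11 in AngII and 179 in AngII_VWR. Their Cxcr2 level was 717, 1466 and 650.1 CPM, from 49, 57 and 204 UMIs, with intervals of 531 to 948, 1111 to 1899.7 and 564 to 746. In dendritic cells no Cxcr2 UMI was seen in any library, which allows up to 3.07, 1.37 and 2.44 CPM. Macrophages gave 0.184, 0.0320 and 0.574 CPM and fibroblasts 0.0410, 0.0972 and 0.377. Over all leukocytes, macrophages plus rest cells with pan-leukocyte transcripts, Cxcr2 was 1.46, 2.13 and 12.6 CPM, 5.92-fold higher (95% interval 4.59 to 7.71) in AngII_VWR than in AngII. That library held more neutrophils among its leukocytes (2975, 2344 and 4105 in the 3 libraries), and the median depth of neutrophils was 5620, 3635 and 1764 UMIs. With cells thinned to 2000 UMIs, which only 56 of the 179 AngII_VWR neutrophils reached, the ratio was 1.38. Within neutrophils the AngII_VWR level was 2.26-fold lower (95% interval 1.65 to 3.04) than in AngII. Fibroblast markers summed to 908, 1492 and 3684 CPM in the neutrophils. The neutrophil markers differed as well, with Retnlg at 16688, 1209 and 134 CPM, S100a8 at 41017, 13248 and 10743 and Csf3r at 1361, 1672 and 1326. These cells were thus not alike between libraries, and the part of these marker differences in the lower Cxcr2 level was not tested.

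Cxcr4, which holds leukocytes near sources of Cxcl12, was found in every leukocyte type and was lowest in AngII for most. Its level over all leukocytes was 179, 116 and 160.3 CPM, 1.54-fold lower (95% interval 1.48 to 1.60) in AngII than in Vehicle and 1.38-fold higher (95% interval 1.32 to 1.44) in AngII_VWR than in AngII. Relative to all genes of the leukocytes, whose median log2 ratio was 0.16, the second difference was 0.30 on the log2 scale. Macrophages, which hold most of these UMIs, gave 176, 124 and 149 CPM, and the thinned share of macrophages with a UMI was 23.3% (21.6 to 25.1), 18.2% (16.5 to 20.0) and 24.0% (22.4 to 25.6) (54.1, 54.9 and 40.1% unthinned). Neutrophils stood at 1127, 540.2 and 787 CPM, monocytes at 744, 72.1 and 188, dendritic cells at 113, 40.6 and 96.6 and B cells at 437, 0 and 343, though AngII held 2 B cells. In T cells the levels of 139.6, 155 and 146 CPM differed by less than counting error, with a ratio of 1.11-fold (95% interval 0.864 to 1.43) for AngII over Vehicle and 0.936-fold (95% interval 0.653 to 1.33) for AngII_VWR over AngII. Fibroblasts gave 1.27, 0.911 and 3.41 CPM. In order of level, Vehicle neutrophils came above monocytes, B cells, macrophages, T cells and dendritic cells, and the intervals of T cells and dendritic cells overlapped.

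Ackr3, the atypical receptor of Cxcl12, was a fibroblast and endothelial transcript and was lower in AngII than in Vehicle. Fibroblasts gave 829.6, 355 and 392 CPM, from 60639, 29231 and 22903 UMIs, 2.34-fold lower (95% interval 2.30 to 2.37) in AngII than in Vehicle and 1.10-fold higher (95% interval 1.09 to 1.12) in AngII_VWR than in AngII. A UMI was present in 53.4% (52.1 to 54.7), 31.5% (30.3 to 32.8) and 34.5% (33.5 to 35.5) of thinned fibroblasts and in 70.2, 60.0 and 46.5% unthinned. The level was lower in AngII in 5 of 5 fibroblast groups, with AngII over Vehicle ratios from 0.378 to 0.602, and within progenitor cells it was 919, 553 and 618 CPM. The call depended on the processing: the ratio was 0.586 with 2 times the class minimum, 0.555 without activated cells and 0.502 for the mean of per-cell CPM, each short of 2-fold. Leukocytes gave 13.6, 5.15 and 16.9 CPM, of which T cells had 15.3, 8.80 and 29.7 and macrophages 13.1, 5.12 and 16.6. These levels were far below those of fibroblasts, and the part of free RNA in them was not tested beyond the subtraction.

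**Figure D5:**
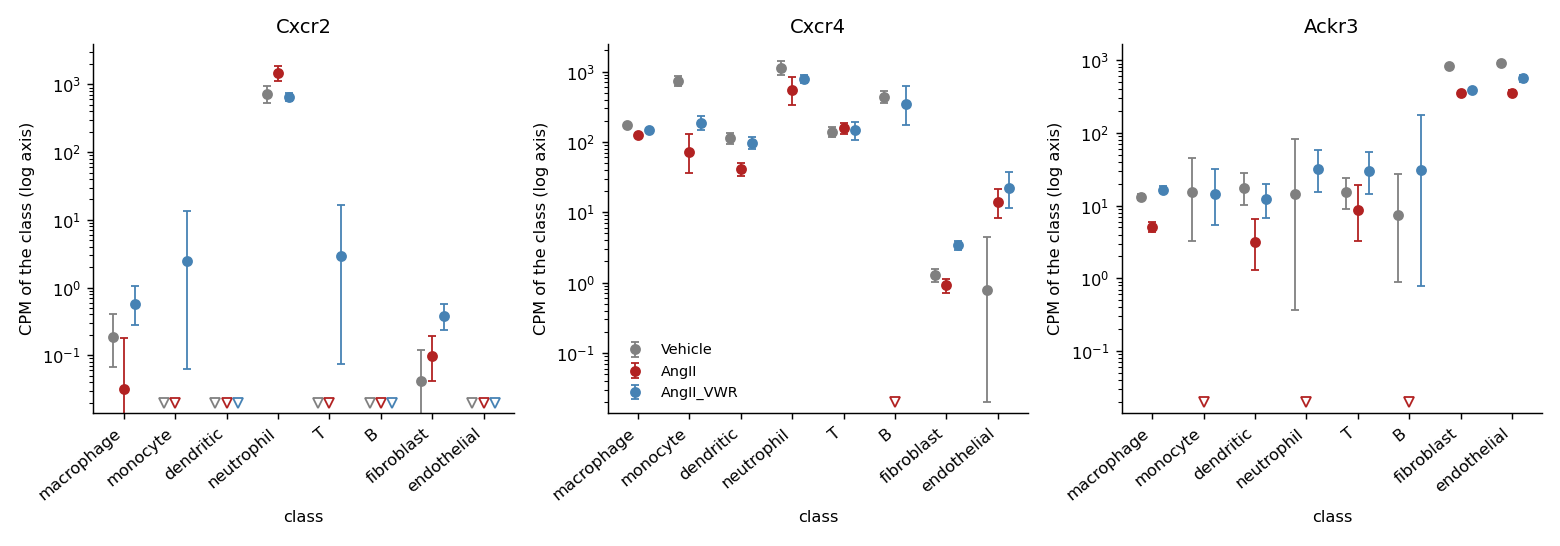
Points give the CPM (log axis) of Cxcr2, Cxcr4 and Ackr3 in leukocyte types, fibroblasts and endothelial cells (x axis), 1 colour per library, with exact Poisson 95% intervals; open triangles at the foot mark classes with no UMI. Of the classes shown, Cxcr2 is high in neutrophils alone, Cxcr4 is present across leukocytes, and Ackr3 is high in fibroblasts and endothelial cells.

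Endothelial cells, 68, 164 and 85 in the rest class by Pecam1, Cdh5, Cldn5, Egfl7, Emcn and Kdr, carried Ackr3 in all libraries. Their Cxcl12 was above the macrophage and T cell levels in AngII and AngII_VWR only. The marker list does not separate blood from lymphatic endothelium, and their mix was not tested. The endothelial Ackr3 level was 919.8, 359 and 566 CPM, again lowest in AngII, at 2.56-fold lower (95% interval 2.30 to 2.85) than in Vehicle. Cxcl12 was at 18.2, 486 and 180.3 CPM and Cxcl9 at 0.793, 141 and 32.0, both highest in AngII, where fibroblast Cxcl12 was lowest. The Cxcl9 levels rested on 1, 195 and 19 UMIs, so no size of a Cxcl9 ratio to Vehicle is read. With 23, 670 and 107 Cxcl12 UMIs, the AngII over Vehicle ratio of Cxcl12 was 26.6-fold (95% interval 17.6 to 42.3). The Vehicle level below it was no higher than that of Vehicle macrophages, so the size of this ratio is poorly fixed. The smooth muscle cells, 544 in Vehicle against 15 and 41, held 0.951% of the UMIs of Cxcl12 in Vehicle.

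Other genes of the pathway were taken from 5 lists. Of 16 inflammatory targets of NF-kB, 14 were measured in fibroblasts for AngII over Vehicle, where 6 were at least 2-fold higher, against 3.47% of all genes, and 0 lower, with a median log2 ratio of 0.73 against -0.07 over all measured genes. For AngII_VWR over AngII, 9 of 15 were lower, against 1.96% of all genes, and 2 higher, against 2.29%, with a median of -1.08 against 0.10. Il6, an inflammatory cytokine, stood at 186, 628 and 86.7 CPM in fibroblasts, and Tnfaip3, a brake on NF-kB, at 46.2, 146 and 25.0. Both thus ordered the libraries as Cxcl1 did. Vcam1, an adhesion molecule for leukocytes, was 67.0, 258 and 157 CPM, and Icam1, another, 102, 243 and 115. The monocyte attractant Ccl7 was 537, 579 and 159 CPM and Tnfaip6, which modifies hyaluronan, 1746, 2466 and 472. The 2 genes higher in AngII_VWR were Tnf and Ccl3, products of macrophages, at 2.56, 1.65 and 5.04 and 6.53, 3.91 and 9.40 CPM in the fibroblast class and 381, 223 and 283 and 868, 591 and 432 in the macrophage class, and were named after their values were seen. In the macrophage class 2 of 15 were past 2-fold upward for AngII over Vehicle, against 3.86% of all genes. In AngII_VWR relative to AngII 4 of 15 were lower (Il1b, Ptgs2, Ccl4 and Il6), against 2.21%. Il1b, the interleukin 1 beta gene, was at 309, 1824 and 344 CPM there and Ptgs2, the inducible cyclooxygenase, at 34.2, 126 and 56.9, the 2 that were higher in AngII than in Vehicle.

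Of 13 interferon-inducible genes, most were lower in AngII_VWR than in AngII in both classes, and few passed 2-fold between AngII and Vehicle. In fibroblasts 1 of 13 was higher (Gbp5) and 1 lower (Rsad2) in AngII than in Vehicle (median 0.24), against 3.47% and 2.02% of all genes. In macrophages also 1 was higher (Gbp5) and 1 lower (Ifit3) of 13 (median 0.24), against 3.86% and 2.43%. For AngII_VWR over AngII, 8 of 12 were lower in fibroblasts, against 1.96% of all genes (median -1.07). In macrophages 10 of 13 were lower, against 2.21% (median -1.27 against 0.17 for all genes), with 0 higher in either class. Gbp5, a guanylate-binding protein, was 10.7, 69.1 and 1.76 CPM in fibroblasts, in the order of Cxcl9. Irf1, the transcription factor, stood at 211, 349 and 83.5. Isg15, at 85.4, 57.2 and 26.0 CPM, was highest in Vehicle, unlike Cxcl10. In macrophages Rsad2, an antiviral enzyme, was 79.6, 51.9 and 8.15 CPM and Iigp1, a GTPase, 30.7, 57.2 and 10.4.

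In fibroblasts and macrophages few genes that carry the receptor signal passed 2-fold. Of 16 genes for G proteins, arrestins, kinases and their partners, 1 was at least 2-fold higher in AngII than in Vehicle macrophages, against 3.86% of all genes. It was Grk3, a receptor kinase, at 3.07, 13.4 and 7.80 CPM. For AngII_VWR over AngII 0 of 16 passed 2-fold in either direction in macrophages, with a median of -0.07. In fibroblasts 1 of 10 measured was higher in AngII than in Vehicle (Rgs2, at 4.80, 13.4 and 14.9 CPM), against 3.47%, and 0 passed 2-fold for AngII_VWR over AngII. In rest cells, where cell types are mixed, 6 of 16 were higher in AngII than in Vehicle, against 13.7% of all genes, with a median of 0.84. Rac2, a leukocyte GTPase, was 96.6, 158 and 98.9 CPM in macrophages. Among 13 other CXC genes, 12 were in the tables. For AngII over Vehicle, 1 of 3 measured in fibroblasts was lower (Ackr1), against 2.02% of all genes, and 0 of 4 in macrophages passed 2-fold. In rest cells 3 of 6 were higher (Cxcl16, Cxcr3 and Cxcr6), against 13.7%. Between AngII_VWR and AngII, 2 of 4 in fibroblasts were higher (Cxcl5 and Pf4), against 2.29%, and 1 of 4 in macrophages was lower (Cxcl3), against 2.21%. In rest cells 3 of 6 were higher (Cxcl3, Pf4 and Ackr1), against 3.3%, and 1 lower (Cxcr3), against 5.55%. In the macrophage class Pf4, platelet factor 4, was at 4689, 3186 and 2694 CPM and Cxcl16, the ligand of Cxcr6, at 158, 279 and 176. Cd68, a macrophage marker, was at 3.41, 2.73 and 15.8 CPM in the fibroblast class. The part of macrophage RNA in the fibroblast Pf4 difference was not tested. In leukocytes Cxcr3, the receptor of Cxcl9 and Cxcl10, was at 4.62, 7.55 and 5.67 CPM, and Cxcr5, the receptor of Cxcl13, at 4.01, 2.33 and 1.75; these receptors and the single genes behind the smallest counts of the lists were named after their values were seen.

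Tissue digestion is known to induce early-response genes, and 12 early-response and heat shock genes were followed beside them. In macrophages 5 of 12 were at least 2-fold lower in AngII than in Vehicle, against 2.43% of all genes, and 0 higher, with a median log2 ratio of -0.94. They were Hspa1a, Hspa1b, Jun, Atf3 and Ier3. Hspa1a, a heat shock gene, was 1264, 456 and 430.4 CPM and Jun 2834, 1319.8 and 1544, both highest in Vehicle, as Cxcl1 and Cxcl2 were in macrophages. Their part in the macrophage values of Cxcl1 and Cxcl2 was not tested. In fibroblasts 0 of 12 passed 2-fold for AngII over Vehicle (median 0.01). For AngII_VWR over AngII, 2 were lower in fibroblasts, against 1.96% of all genes, with a list median of -0.30. They were Socs3 at 579.6, 726 and 125 CPM and Atf3 at 1597, 1206 and 439, and their part in the lower Cxcl1 was not tested either.

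Genes whose levels most resembled each member were sought over the 9 profiles of 3 libraries by 3 classes, among 5552 genes with at least 50 CPM in a profile. The profiles share libraries and depth, and r is Pearson's correlation of log2(CPM + 1), given as a description. Nearest to Ackr3 were Adgrd1 (r = 0.997), Ugdh (r = 0.997) and Adamts5 (r = 0.997), and nearest to Cxcl12 were Mettl9 (r = 0.990), Serpina3n (r = 0.987) and Mlec (r = 0.983). Cxcl2 was closest to Slc43a2 (r = 0.996), Pnpla7 (r = 0.996) and Rhbdf2 (r = 0.995), and Cxcr4 to Nfam1 (r = 0.992), Itgam (r = 0.991) and Gpr183 (r = 0.990). For Cxcl10 they were H2-Q4 (r = 0.962), Arpc1b (r = 0.905) and Mvp (r = 0.898), for Cxcl14 Baiap2 (r = 0.961), Ndufa2 (r = 0.934) and Cthrc1 (r = 0.926), and for Cxcl1 Tubb2a (r = 0.930), Cuta (r = 0.929) and Mrpl27 (r = 0.913). Cxcl9 was nearest to Atp5j2 (r = 0.878), Dctn4 (r = 0.863) and Gbp5 (r = 0.857), and Cxcl13 to Kxd1 (r = 0.951), Ndufc2 (r = 0.942) and Rpl35a (r = 0.871).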

How the data were processed

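The aortic adventitia of 3 mice per group was digested with enzymes and profiled as 1 single-cell 3' library per group. The deposited matrices hold raw UMI counts per gene and barcode, made with Cell Ranger 7.0.1 (Vehicle, AngII) and 7.1.0 (AngII_VWR) per the file headers, on mm10 per the submitters' processing notes. Barcodes entered as cells with 300 or more genes, 500 or more UMIs and no more than 10% of UMIs from mitochondrial genes. Doublets were scored with Scrublet (scanpy 1.11.5). Its own threshold marked 248, 135 and 0 cells, so cells with the top scores were left out at a rate of 0.8% for each 1000 cells, 1537, 784 and 2894 in all.

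UMIs were summed per class and scaled to CPM with exact Poisson intervals, ratios have exact conditional intervals, shares have Clopper-Pearson intervals, and log2 ratios used a pseudocount of 1 CPM (numpy 2.4.6, scipy 1.17.1, pandas 2.3.3). A count of 0 allows up to 3 UMIs. Genes counted as measured had at least 5 CPM in either library and 10 UMIs over both. The interval calculation was run on simulated data with 200 changed genes: for AngII over Vehicle in fibroblasts, over 10132 genes, its intervals held the true ratio for 95.4%. The simulated counts were Poisson, as the intervals assume, so such coverage was built in. Clumping of UMIs in single cells was not simulated, and the coverage for these data is not known. The groups were taken from the sample titles, and the title of AngII_VWR abbreviates the running group.

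The members, lists and states were chosen with earlier results of these data known. Genes were named by rule: all members, up to 4 genes of each list with the largest ratio and at least 50 CPM, and the 3 genes most like each member.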

Additional observations from a re-analysis of the deposited data

Results flagged for a closer look

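The AngII over Vehicle ratio went opposite ways in fibroblasts and macrophages for both ELR chemokines, which is why they are listed here. For Cxcl1 the ratio was 1.58 in fibroblasts and 0.523 in macrophages, with 1 library per group behind each value. Among the fibroblast groups the Cxcl1 ratio was above 1 in 3 of 5 and below 1 in 2, activated (0.909) and Cilp cells (0.815). For Cxcl2 the ratio was 1.91 in fibroblasts and 0.671 in macrophages. Cxcl2 in T cells was above the fibroblast level in Vehicle and below it in AngII. The subtraction of free RNA left no Cxcl2 ratio in fibroblasts, so its direction there is not settled. The difference between the classes was not tested, since there were no replicates.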

How the results depend on the processing

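Of 31 ratios past 2-fold over fibroblasts, macrophages, rest cells and leukocytes, 21 kept the call under every alternative that gave a ratio, and 1 reversed: Cxcl13 in rest cells, AngII_VWR over AngII, was 0.428 and became 4.32 without the cell with most Cxcl13 UMIs, which held 93.3% of those of AngII rest cells. This alternative was chosen after seeing the data. The Cxcl1 ratio of AngII_VWR over AngII in fibroblasts stayed between 0.1998 and 0.234. In fibroblasts, members lower in AngII than in Vehicle numbered 1, but 0 with 2 times the class minimum, for the mean of per-cell CPM or without activated cells, and 2 with 5% of other cells subtracted. In macrophages the count was 1, but 2 without Scrublet removal, for the mean of per-cell CPM, with the subtraction (Cxcl1 and Cxcl12, no longer Ackr3), without Ccr2 cells, or with no minimum for calls. In rest cells it was 1, but 0 with 2 or 0.5 times the class minimum, thinned, or for the mean of per-cell CPM. Receptors higher in AngII than in Vehicle leukocytes numbered 0, but 1 for the mean of per-cell CPM, and lower ones 1, but 0 with the subtraction. Members higher in AngII_VWR than in AngII numbered 0 in fibroblasts, but 1 without Scrublet removal or with 2 times the class minimum and 2 with no minimum for calls. In rest cells they numbered 3, but 1 with 2 times the class minimum or thinned and 5 without the top cell. In leukocytes 2 receptors were higher, but 1 thinned or with the subtraction. The subtraction left no ratio where a library reached 0, as for Cxcl12 and Ackr3 in macrophages and Cxcl2 in fibroblasts. It also removed the Ackr3 calls of both comparisons in macrophages and leukocytes, which the 21 above still count as kept. Beyond what each alternative's own construction shows, the cause of these shifts was not tested. No paired analysis was possible because each group is 1 library with no replicate number. Neutrophils, monocytes and B cells were few, at 11, 15 and 2 in AngII.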

Other observations

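Several ligands were found in the same fibroblasts more often than in the rest of the class. Among fibroblasts thinned to 2000 UMIs, Cxcl14 was detected in 1.07, 4.68 and 3.02% of those with a Cxcl12 UMI, against 0.446, 1.36 and 2.08% of those without. Cxcl12 was detected in 50.5, 38.0 and 54.6% of fibroblasts with a Cxcl1 UMI and 40.1, 30.6 and 48.3% of those without. In macrophages Cxcl2 was detected in 89.5, 86.8 and 92.0% of cells with a Cxcl1 UMI and 65.0, 72.7 and 73.6% of those without.

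Near-fat fibroblasts (Penk, Ptx3, Has1) held the highest Cxcl13 level of the fibroblast states present in all 3 libraries, 35.8, 23.9 and 33.4 CPM, against 2.93, 4.52 and 4.65 in progenitor cells. Their Cxcl10 level was 41.3, 186 and 13.3 CPM. Of the 11 AngII neutrophils, 1 held all 56 Cxcl9 UMIs of that class.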
